A study of Mus musculus with 9 samples.

Results

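The 45 genes described here act in cell division, from the kinases that start mitosis to the proteins that cut the daughter cells apart. They were chosen by name and matched by gene symbol to the Ensembl identifiers in the count files, where all 45 were found among the 46078 genes listed for cultured cells and among the 38293 listed for muscle. RNA sequencing covered 9 libraries of C57BL/6 mice. These were GAS, the gastrocnemius muscle of females aged 8 to 12 weeks (3 biological replicates), MB, primary myoblasts kept in growth medium with serum and basic FGF (2), MT, the primary myotubes obtained after 3 days in differentiation medium with little serum (2), and MB to whose medium sodium-L-lactate in PBS was added at 10 mM (2). The control MB received the same amount of PBS. MT was compared with MB, lactate-treated with control MB, and the level in GAS is given beside them without a test, because its libraries were made from poly(A) RNA by another protocol than the Smart-seq2 libraries of the cultured cells. Nothing in the labels says whether MB and MT cultures came from the same animals, and the p-values measure only the spread between these libraries.

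Skeletal muscle fibers are built from myoblasts that divide, leave the cell cycle for good and fuse. Cells that divide transcribe most mitotic genes in G2 and M phase, when the kinase Cdk1 bound to cyclin B triggers chromosome condensation and spindle assembly. The kinetochore, which is assembled on the centromere, binds spindle microtubules, and the spindle checkpoint holds back the anaphase-promoting complex until every kinetochore is attached. That complex then marks cyclin B and the inhibitor of separase for destruction, sister chromatids part, and an actomyosin ring divides the cytoplasm. In resting cells the DREAM complex represses these genes through promoter elements called CHR, which often lie beside CCAAT boxes, the sites of the activator NF-Y.

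Between 5198247 and 10839516 reads per library were counted on genes for the cultured cells, and between 19307793 and 19941574 for GAS. A count of 3, taken as the limit of detection, corresponds to at most 0.577 CPM in cultured cells and 0.155 CPM in GAS, which covers counting error only. The myotube markers Myog, Mymk, Mymx, Ckm, Acta1 and Myh3 were all called higher in MT, at summed levels of 9759 and 11862 CPM against 198 and 90.5 in MB. The summed myoblast markers Pax7, Myf5, Myod1 and Cdh15 were at 249 and 750.2 CPM in MT and 1542 and 930.1 in MB. Of these 4, only Pax7 was called lower in MT, and none was called higher. Cdh15 was at 87.9 and 363 CPM in MT and 305 and 173 in MB (log2FC -0.16, adjusted p = 0.89 from edgeR). Of 6 fibroblast markers, 4 were tested and 3 called higher in MT, with sums of 24033 and 14563 CPM against 234 to 473 in MB, where Lum had no count in either library. The collagen genes Col1a1 (13116 and 1762 CPM in MT) and Col3a1 (10497 and 12688 CPM) made up most of these sums. Dcn, also called, was at 408 and 110 CPM in MT. Pdgfra was not called, at 5.66 and 2.54 CPM in MT and 1.59 and 1.45 in MB. In MT, Lum had 81 and 6 counts and Thy1 had 1 and 0. Among the libraries of cultured cells, summed markers of other cells were highest in MT replicate 1. They were at 9.53 CPM for 3 endothelial, 16.8 for 4 leukocyte and 5.36 for 3 erythroid markers. They were at 0, 2.93 and 0 in MT replicate 2 and at or below 1.72 in every library of MB and lactate-treated MB. The part of these markers in the results on MT was not tested.

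The libraries of MB replicate 1 and of lactate-treated MB replicate 1 stood apart from the others of their groups. The ribosomal RNA gene CT010467.1 took 9.20% and 13.8% of their counts, against at most 0.575% in the other libraries of cultured cells. Many of the mitotic genes, and above all those with transcripts low in GC, were several-fold lower in MB replicate 1 than in MB replicate 2. In 20 of the 45 genes the MB replicates differed by more than 2-fold and in 12 by more than 4-fold, whereas the MT replicates differed by more than 2-fold in 5. Values without MB replicate 1 are therefore given beside the results that rest on it. MT replicate 1 stood apart in another way, with 28599 genes detected against 15548 to 17965 in the other cultured libraries, and 36 of the 45 genes were higher in it than in MT replicate 2.

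The 45 genes were all at a lower mean level in MT than in MB. All 45 passed the filter on low counts, and 30 of them were called lower, at an adjusted p under 0.05 from edgeR's quasi-likelihood test and a log2FC under -0.5. Over all 12921 genes tested, 6.86% were called lower by this rule. None of the 45 was called higher, and none had a log2FC above 0, against 11.0% of all genes called higher. DESeq2 and the likelihood ratio test of edgeR likewise called none higher. At an unadjusted p under 0.05 from the quasi-likelihood test there were 39 of the 45 genes, all of them lower. Over all 12921 genes tested, 4197 were at such a p, in either direction. The median log2FC of the 45 genes was -2.21, and that of all genes 0.07. In 37 genes both MT libraries were below both MB libraries, which was so for 29.2% of all genes tested. The exceptions were Cenpk, Cenpe, Cenpf, Knl1, Spc25, Mki67, Smc2 and Smc4, in which the low value of MB replicate 1 overlapped those of MT. Without MB replicate 1, 42 of the 45 genes were called lower, beside 5.93% of all genes, and the median log2FC was -2.63. This fit takes its spread from the MT pair alone and assumes that the lone MB library varies like it. It tested 18783 genes, and the median log2FC over all of them was 0.68. The fits without MT replicate 1 and without MT replicate 2 tested 13102 and 18831 genes. Without MT replicate 1, 26 genes were called lower, beside 2.06% of all genes, and without MT replicate 2, 24, beside 4.26%, with the spread taken from the MB pair. In RNA of whole cultures, fewer dividing cells and less RNA per cell cannot be told apart.

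**Figure D1:**
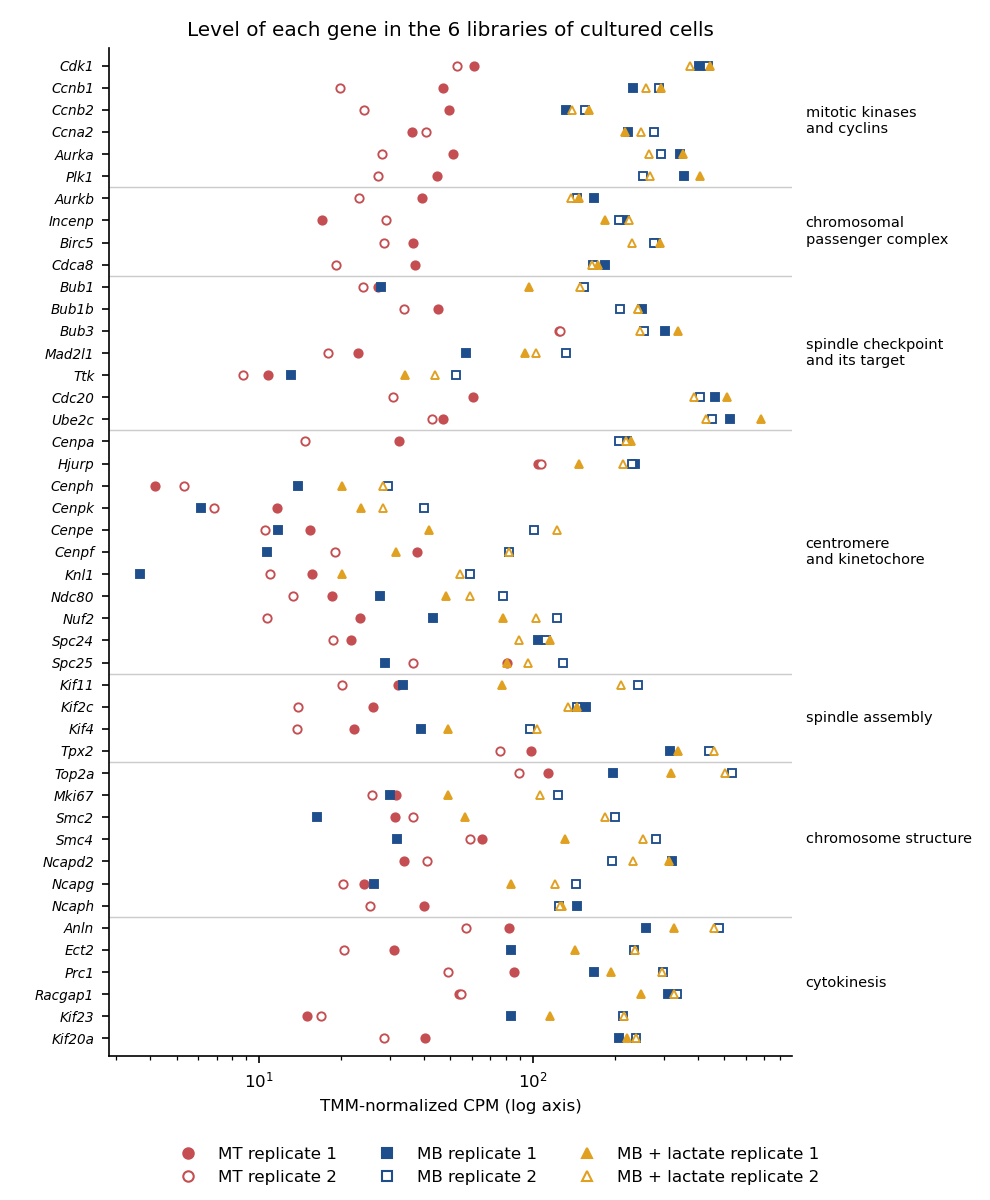
Level of each of the 45 genes (rows, grouped by role) as TMM-normalized CPM on a log axis, with 1 symbol per library of MT, MB and lactate-treated MB. The MT libraries sit left of both MB libraries in 37 genes, and the 8 exceptions, where MB replicate 1 (filled squares) overlaps MT, are genes of the kinetochore and of chromosome structure.

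Since all 45 genes had a log2FC below 0, their promoters were searched for the CHR and CCAAT elements. RefSeq windows from 250 bases before to 50 after the transcription start were at hand for 38 of the 45. The letters CCAAT, on either strand, were present in 30 of the 38 windows (78.9%), against 41.1% of the windows of 27025 genes. A CHR was searched as TTTGAA on either strand or as 1 of 2 words that read the same on both strands, which are TTTAAA and, less often, TTCGAA. It was present in 33 (86.8%) against 31.9%. In the stretch from 60 bases before to 50 after the start a CHR was found in 29 (76.3%) against 10.9% of all genes. Both elements together occurred in 28 windows (73.7%) against 12.8%. Of 17 genes of DNA replication with a window, 13 (76.5%) held CCAAT and 7 (41.2%) a CHR. At least 1 of the E2F-like words TTTCGCGC, TTTGGCGC, TTTCCCGC and TTTGCCGC was found in 9 of these 17 replication genes (52.9%) and in 3 of the 38 mitotic genes (7.89%), against 2.60% of all genes. The E-box CAGCTG was found in 6 of the 38 (15.8%) and in 18.3% of all genes. These shares are descriptions of letters, were not tested, and do not show binding. The 28 genes with both elements had a median log2FC between MB and MT of -2.18 and the 10 that lacked 1 or both of them -2.17.

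To show how these elements are placed, the promoters of the first gene of each role that had a window are printed from 250 bases before to 30 after the start, for all roles but cytokinesis, with CCAAT boxes and CHR elements of either strand in capitals (RefSeq sequence, GRCm38.p6, 5′ to 3′ on the strand of the gene).
Cdk1, chr10:69352883-69353162, minus strand: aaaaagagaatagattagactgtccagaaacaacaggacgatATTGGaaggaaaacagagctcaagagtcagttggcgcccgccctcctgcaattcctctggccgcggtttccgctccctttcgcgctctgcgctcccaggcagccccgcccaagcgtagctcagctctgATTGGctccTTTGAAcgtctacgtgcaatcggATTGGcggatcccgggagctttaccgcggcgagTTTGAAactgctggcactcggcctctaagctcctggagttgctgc
Birc5, chr11:117848987-117849266, plus strand: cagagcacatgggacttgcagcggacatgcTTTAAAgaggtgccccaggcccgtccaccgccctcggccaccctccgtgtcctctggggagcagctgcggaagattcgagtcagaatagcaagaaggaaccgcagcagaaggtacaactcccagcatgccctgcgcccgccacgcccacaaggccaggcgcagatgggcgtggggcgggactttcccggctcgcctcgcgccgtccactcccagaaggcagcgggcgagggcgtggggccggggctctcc
Bub1, chr2:127831830-127832109, minus strand: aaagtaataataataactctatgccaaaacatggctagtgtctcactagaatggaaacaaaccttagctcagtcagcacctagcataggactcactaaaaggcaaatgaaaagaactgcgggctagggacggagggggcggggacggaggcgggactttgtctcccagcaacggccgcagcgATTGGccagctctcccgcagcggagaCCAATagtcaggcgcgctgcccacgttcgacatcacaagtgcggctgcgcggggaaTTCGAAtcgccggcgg
Cenpa, chr5:30666636-30666915, plus strand: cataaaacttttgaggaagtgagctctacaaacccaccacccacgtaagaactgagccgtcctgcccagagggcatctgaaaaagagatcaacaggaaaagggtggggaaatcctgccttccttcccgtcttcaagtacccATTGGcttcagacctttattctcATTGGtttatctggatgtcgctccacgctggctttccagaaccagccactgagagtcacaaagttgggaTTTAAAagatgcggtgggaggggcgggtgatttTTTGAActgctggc
Kif11, chr19:37376132-37376411, plus strand: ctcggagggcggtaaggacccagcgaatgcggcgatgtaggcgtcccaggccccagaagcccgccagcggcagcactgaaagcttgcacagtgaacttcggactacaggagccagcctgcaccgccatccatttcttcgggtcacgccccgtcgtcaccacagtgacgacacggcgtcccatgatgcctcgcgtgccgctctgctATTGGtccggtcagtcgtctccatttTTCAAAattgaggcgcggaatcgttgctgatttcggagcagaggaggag
Top2a, chr11:99024160-99024439, minus strand: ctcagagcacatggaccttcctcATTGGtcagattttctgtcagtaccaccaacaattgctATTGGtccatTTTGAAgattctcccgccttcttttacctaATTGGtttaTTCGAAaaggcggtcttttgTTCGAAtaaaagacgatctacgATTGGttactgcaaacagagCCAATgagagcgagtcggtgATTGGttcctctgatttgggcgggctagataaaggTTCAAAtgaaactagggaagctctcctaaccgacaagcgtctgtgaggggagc

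In the Kif11 promoter 1 CCAAT box begins 45 bases before the start and 1 CHR follows 19 bases before it. The Cdk1 promoter has CCAAT boxes 208, 80 and 48 bases before the start and CHR words 71 and 15 bases before it. Cenpa has a pair of boxes, 109 and 86 bases before the start, and CHR words 17 bases before it and at base 17 after it. In Bub1 the only CHR begins at base 15 of the transcript. Top2a carried 6 CCAAT boxes and 4 CHR words, more than the other printed promoters. The Birc5 window held no CCAAT and a single TTTAAA, 220 bases before the start.

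The mitotic kinases and cyclins were all called lower in MT, with a median log2FC of -2.90. Cdk1, the kinase that drives entry into mitosis, was at 61.2 and 52.7 CPM in the MT libraries and 404 and 437 CPM in those of MB. The groups lay far apart, the replicates of each were alike, and Cdk1 fell by 2.87 log2 units (SE 0.47, adjusted p = 0.00282). Its partner cyclin B1, encoded by Ccnb1, was at 47.1 and 19.7 CPM in MT and 233 and 289 in MB and fell by 2.92 log2 units (SE 0.55, adjusted p = 0.00553). The annotation holds 5 other genes with stretches of at least 90% identity to Ccnb1, the closest at 99.2%, between which reads may be split. Such copies elsewhere in the genome were found for 10 of the 45 genes, Ccnb1, Ndc80, Plk1, Cdc20, Ube2c, Kif11, Kif2c, Mad2l1, Bub3 and Cenpe. Ccnb2, the second B-type cyclin, kept the largest share of its MB level in this group, with 49.3 and 24.2 CPM in MT and 132 and 155 in MB, and fell by 1.93 log2 units (SE 0.49, adjusted p = 0.0227), a call lost without MT replicate 2 (adjusted p = 0.109 from edgeR). Ccna2, whose cyclin A2 acts in S and G2 phase, fell by 2.69 log2 units (SE 0.44, adjusted p = 0.00282). Plk1, which matures centrosomes and helps to activate Cdk1, had 44.7 and 27.2 CPM in MT and 356 and 252 in MB. Its groups did not overlap, and it fell by 3.07 log2 units (SE 0.52, adjusted p = 0.00333). Aurka, the Aurora kinase of the spindle poles, fell by 2.99 log2 units (SE 0.52, adjusted p = 0.00373). In these 6 genes MB replicate 1 and 2 differed little, and the median log2FC without MB replicate 1 was -2.91.

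All 4 subunits of the chromosomal passenger complex, which corrects wrong attachments and later sits at the midzone of the spindle, were called lower. The scaffold Incenp, with 17.0 and 29.0 CPM in MT and 217 and 206 in MB, fell by 3.23 log2 units (SE 0.47, adjusted p = 0.00147). Birc5, the survivin gene, was nearly equal in the MB libraries at 282 and 276 CPM and stood at 36.5 and 28.6 CPM in MT. It fell by 3.09 log2 units (SE 0.47, adjusted p = 0.00178). For the kinase Aurkb the fall was smaller, from 167 and 145 CPM to 39.5 and 23.3 CPM, and it fell by 2.29 log2 units (SE 0.48, adjusted p = 0.00921). Cdca8, which encodes borealin, fell by 2.61 log2 units (SE 0.50, adjusted p = 0.00646).

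Among the spindle checkpoint genes and their target, 4 of 7 were called lower, and both MT libraries were below both MB libraries in all 7. The largest changes were those of Cdc20 and Ube2c. Cdc20, the activator of the anaphase-promoting complex, was at 60.5 and 30.8 CPM in MT and 463 and 407 in MB and fell by 3.23 log2 units (SE 0.55, adjusted p = 0.00331). Ube2c, the ubiquitin-conjugating enzyme of that complex, was at 47.1 and 42.7 CPM in MT and 524 and 449 in MB and fell by 3.44 log2 units (SE 0.49, adjusted p = 0.00136), the log2FC of largest size among the 45 genes in this fit. Bub1b, which encodes the checkpoint protein BubR1, fell by 2.53 log2 units (SE 0.46, adjusted p = 0.00509). Mad2l1, whose product Mad2 captures Cdc20, was at 23.1 and 17.9 CPM in MT but unequal in MB, at 57.2 and 133 CPM, and fell by 2.16 log2 units (SE 0.51, adjusted p = 0.0158).

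The other 3 checkpoint genes were not called. The kinase Bub1 was at 27.2 and 23.9 CPM in MT and 27.9 and 154 in MB, so that MB replicate 1 was barely above MT, with a log2FC of -1.76 (SE 0.66, adjusted p = 0.0888). Without MB replicate 1 it was -2.63, and without MB replicate 2 it was -0.28. Ttk, the kinase that starts checkpoint signalling, had a log2FC of -1.68 (SE 0.65, adjusted p = 0.0978). It was -2.46 without MB replicate 1 and -0.57 without MB replicate 2. Bub3, in contrast, had alike replicates, with 125 and 126 CPM in MT and 304 and 255 in MB, and a log2FC of -1.16 (SE 0.44, adjusted p = 0.094). Bub3, which binds checkpoint proteins to kinetochores, had the highest level in MT of the 45 genes by CPM and was not called without MB replicate 1 either, at a log2FC of -1.07.

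Of the 11 centromere and kinetochore genes, 4 were called lower, and their median log2FC was -1.67, the smallest among the roles. Cenpa, the histone H3 variant that marks the centromere, was at 32.4 and 14.8 CPM in MT and 220.2 and 207 in MB and fell by 3.15 log2 units (SE 0.54, adjusted p = 0.00344). Hjurp, the chaperone that deposits it, had a much smaller difference, with 104 and 107 CPM in MT and 237 and 229.7 in MB and a log2FC of -1.15 (SE 0.43, adjusted p = 0.0877). Both libraries of each group were close to each other for Hjurp, and its log2FC without MB replicate 1 was -1.17, again not called.

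The Ndc80 complex, which holds the ends of microtubules, split in the test. Spc24 was at 21.6 and 18.7 CPM in MT and 105 and 111 in MB and fell by 2.41 log2 units (SE 0.44, adjusted p = 0.00514). Nuf2, at 23.5 and 10.7 CPM in MT and 43.3 and 123 in MB, fell by 2.21 log2 units (SE 0.61, adjusted p = 0.0306), and was not called without MT replicate 2 (adjusted p = 0.0728 from edgeR). Ndc80 had 18.5 and 13.4 CPM in MT and 27.6 and 77.5 in MB and a log2FC of -1.67 (SE 0.56, adjusted p = 0.0642), and the annotation holds 3 other genes with stretches over 90% identical to it. Spc25 had the log2FC nearest to 0 of all 45 genes, at 80.3 and 36.6 CPM in MT and 28.9 and 129 in MB. The MB libraries enclosed both MT libraries, the log2FC was -0.35 (SE 0.65, adjusted p = 0.75 from edgeR), and Spc25 was not called without MB replicate 1 (log2FC -1.17).

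Cenph, of the constitutive centromere network, was at 4.17 and 5.34 CPM in MT and 13.8 and 29.6 in MB and fell by 2.17 log2 units (SE 0.60, adjusted p = 0.0302). This call was lost without MB replicate 2, at a log2FC of -1.70, and without MT replicate 1 (adjusted p = 0.193 from edgeR). Its partner Cenpk was not called, at 11.6 and 6.87 CPM in MT and 6.13 and 39.9 in MB. Knl1, the dock of the checkpoint proteins, showed the widest gap between MB libraries, with 3.68 and 58.9 CPM, around the MT values of 15.6 and 10.9 CPM. Its log2FC was -1.15 (SE 0.90) over all 4 libraries, -2.19 without MB replicate 1 and 1.70 without MB replicate 2. The kinetochore motor Cenpe (11.8 and 101 CPM in MB) and the large coiled-coil protein gene Cenpf (10.7 and 81.7 CPM) were spread in the same way. The log2FC of Cenpe was -3.00 without MB replicate 1 and -0.01 without MB replicate 2. Over the 11 genes, the median log2FC was -2.32 without MB replicate 1, where 9 were called, and -0.94 without MB replicate 2.

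**Figure D2:**
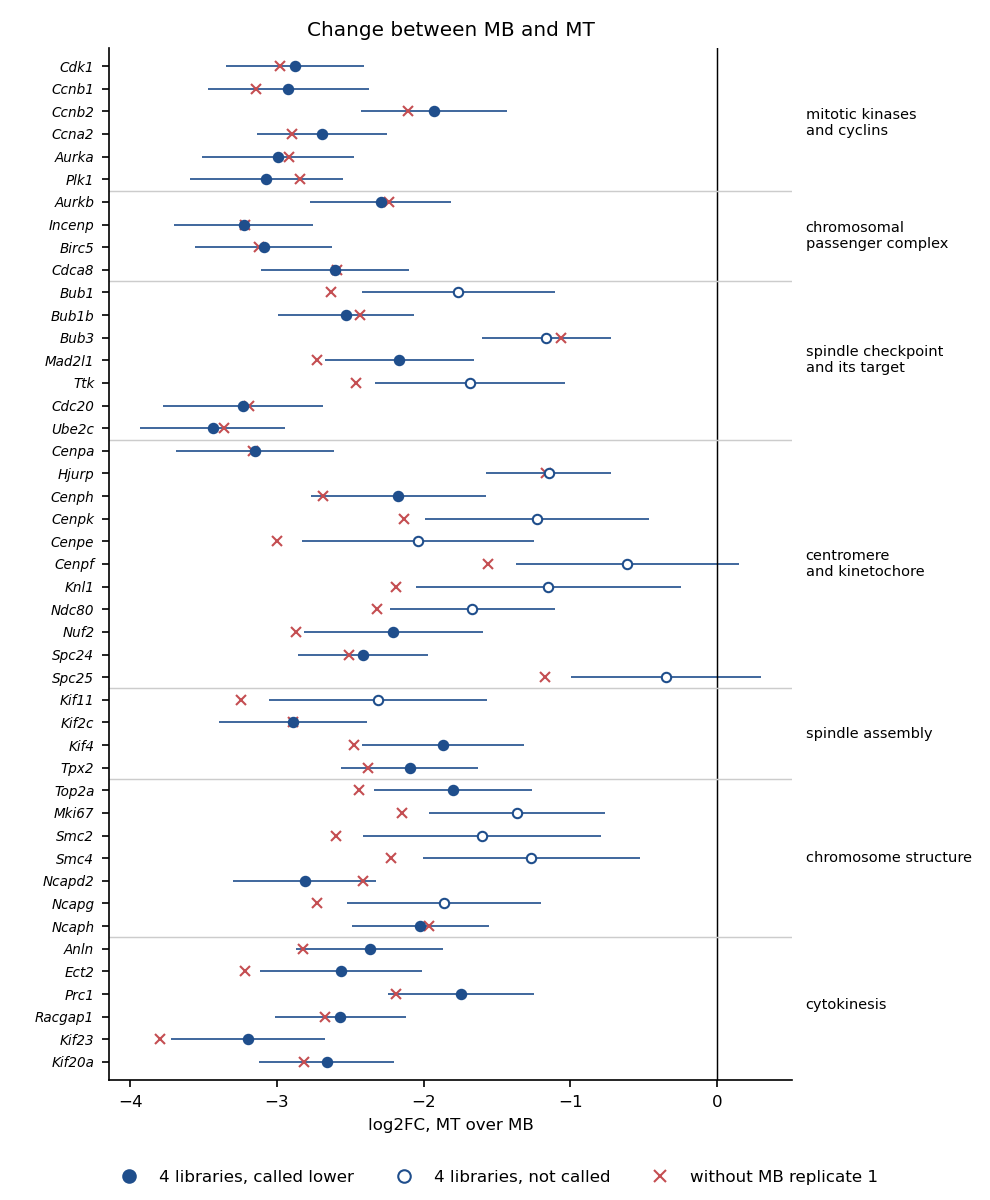
Log2FC of MT over MB for the 45 genes by role, with the standard error (bars) from edgeR over 4 libraries (circles, filled where called lower) and the value without MB replicate 1 (crosses). All circles are left of 0, from -0.35 for Spc25 to -3.44 for Ube2c, and the crosses lie further left where circles are open, except for Bub3. The fit without MB replicate 2 is not drawn, and in it the 15 genes not called had a median log2FC of -0.22.

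Among the genes of spindle assembly, 3 of 4 were called lower. Kif2c, a kinesin that takes microtubules apart at the centromere, had 25.99 and 13.9 CPM in MT and 156 and 145 in MB and fell by 2.89 log2 units (SE 0.50, adjusted p = 0.0038). Tpx2, which activates Aurora A on the spindle, was at 98.3 and 75.8 CPM in MT and 316 and 440.0 in MB and fell by 2.09 log2 units (SE 0.47, adjusted p = 0.0122). Its call was lost without MT replicate 1 or 2 (adjusted p = 0.0689 and 0.0613 from edgeR). Kif4, a motor that travels on chromosome arms, fell by 1.87 log2 units (SE 0.55, adjusted p = 0.0402). Its call was lost without MB replicate 2 (log2FC -1.26), without MT replicate 1 or 2 (adjusted p = 0.0717 and 0.108 from edgeR), at a minimum of 10 counts in every library (0.0575) and with all 6 cultured libraries in one fit (0.0534). Kif11, the motor that pushes the spindle poles apart, was just outside the threshold, at 32.2 and 20.1 CPM in MT and 33.5 and 242 in MB, with a log2FC of -2.31 (SE 0.74, adjusted p = 0.0543) and -3.24 without MB replicate 1. The median log2FC of these 4 genes was -2.68 without MB replicate 1 and -1.64 without MB replicate 2.

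In the chromosome structure group 3 of 7 genes were called lower. Of condensin I, which compacts chromosomes, the subunits Ncapd2 and Ncaph were called. Ncapd2 had 33.8 and 41.2 CPM in MT and 323 and 194 in MB and fell by 2.81 log2 units (SE 0.49, adjusted p = 0.00381). Ncaph fell by 2.02 log2 units (SE 0.47, adjusted p = 0.0143) and was not called without MT replicate 2 (adjusted p = 0.0728 from edgeR). The 2 ATPases of the condensin core, Smc2 and Smc4, were not called. Smc2 had 31.4 and 36.5 CPM in MT and 16.3 and 199.7 in MB, and Smc4 had 65.4 and 59.0 CPM in MT and 31.99 and 283 in MB. In both genes MB replicate 1 was below and MB replicate 2 well above the MT libraries. Ncapg, another subunit of condensin I, at 24.3 and 20.2 CPM in MT and 26.2 and 143 in MB, had a log2FC of -1.86 (SE 0.66, adjusted p = 0.0774). Top2a, the topoisomerase that untangles sister chromatids, was at 114 and 89.0 CPM in MT and 196 and 535 in MB and fell by 1.80 log2 units (SE 0.54, adjusted p = 0.0416). Its call was lost without MB replicate 2 (log2FC -1.11), without MT replicate 1 or 2 (adjusted p = 0.129 and 0.1 from edgeR), at a minimum of 10 counts in every library (0.0551), with all 6 cultured libraries in one fit (0.0507) and with the replicate block (0.068). Mki67, the gene of the proliferation antigen that coats mitotic chromosomes, was at 31.6 and 25.8 CPM in MT and 30.0 and 124 in MB. Its log2FC was -1.36 (SE 0.60), and -2.15 without MB replicate 1. The median log2FC of the group was -1.80 over 4 libraries, -2.41 without MB replicate 1, where all 7 were called, and -0.39 without MB replicate 2.

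All 6 cytokinesis genes were called lower, with a median log2FC of -2.56. Kif23 and Racgap1 form centralspindlin, which bundles the midzone and recruits Ect2. Kif23 had 15.0 and 16.8 CPM in MT and 83.5 and 214 in MB and fell by 3.19 log2 units (SE 0.52, adjusted p = 0.00282). Racgap1 was more even, at 53.8 and 54.7 CPM in MT and 310.2 and 335 in MB, and fell by 2.57 log2 units (SE 0.45, adjusted p = 0.00381). Ect2, the exchange factor that switches on RhoA at the cleavage plane, was at 31.1 and 20.5 CPM in MT and 83.1 and 234 in MB and fell by 2.56 log2 units (SE 0.55, adjusted p = 0.0105). Anln, the anillin of the contractile ring, fell by 2.37 log2 units (SE 0.50, adjusted p = 0.00957), and the midzone motor Kif20a fell by 2.66 log2 units (SE 0.46, adjusted p = 0.00371). Prc1, which crosslinks antiparallel microtubules, kept the largest share of its MB level in this group, 28.9%, and fell by 1.74 log2 units (SE 0.50, adjusted p = 0.0352), a call lost without MT replicate 1 or 2 (adjusted p = 0.0682 and 0.138 from edgeR). Opposite-strand genes share 29.3% of the exonic bases of Kif20a (Cdc23) and 11.1% of those of Prc1 (Rccd1). The same holds for 22.8% of Ube2c (Tnnc2), 15.1% of Kif4 (Pdzd11), 13.4% of Ncapg (Lcorl) and 12.5% of Ccna2 (Exosc9). The handling of strand in the counting is not stated.

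The spread within MB varied with the base composition of the transcripts. Across the 45 genes, the log2 ratio of MB replicate 1 to MB replicate 2 correlated with the GC content of the longest annotated transcript at a Pearson r of 0.82 (Spearman rho 0.88), as a description over genes that share the same pair of libraries. The same relation had r = 0.64 for the lactate-treated MB replicates and r = -0.07 for the MT replicates, and r = 0.66 across 12886 genes in MB with 0.5 added to the CPM. The 45 genes had a median GC of 46.3% against 49.5% for all genes tested. In the 15 genes lowest in GC, at most 43.3%, MB replicate 2 was a median of 5.50 times as high as MB replicate 1, and 3 of them (Mad2l1, Ect2 and Nuf2) were called lower in MT. In the 15 highest in GC, at least 48.3%, the median ratio was 0.879 and 14 were called, with the exception of Hjurp. Between MB and MT the median log2FC was -1.68 in the low-GC and -2.81 in the high-GC genes, and -2.60 and -2.82 without MB replicate 1. These sets of 15 were formed after the values were seen. With the trend of each library on GC and transcript length removed, in a fit that also held a replicate term, 41 of the 45 genes were called lower, beside 14.9% of all genes. The median log2FC was -2.64 for the 45 genes and -0.26 for all genes in this fit, where that of all genes had been 0.07 in the first fit.

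**Figure D3:**
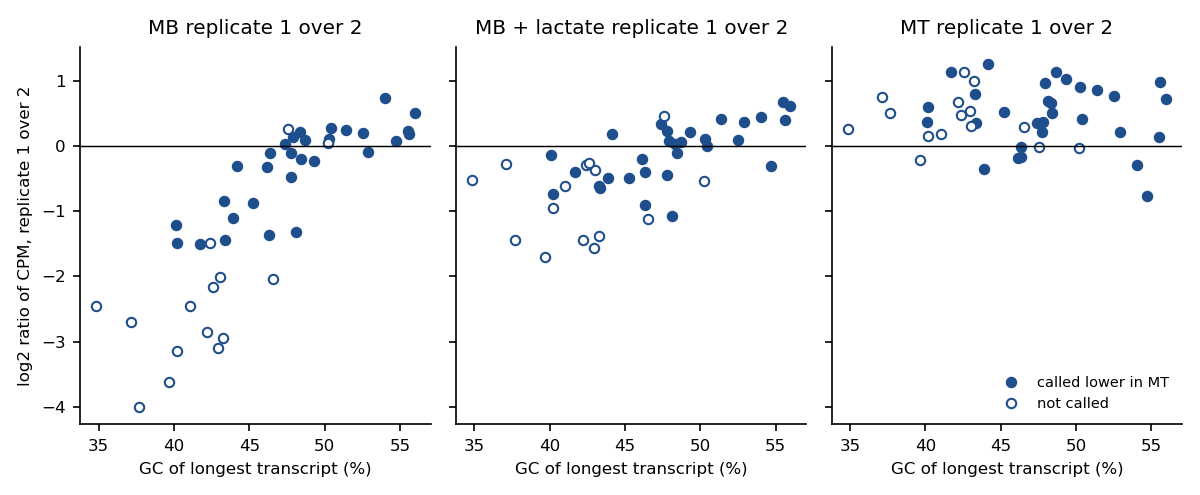
Log2 ratio of CPM between replicate 1 and replicate 2 of MB, lactate-treated MB and MT (panels) against the GC content of the longest transcript of each of the 45 genes (points, filled where called lower in MT). In MB the ratio runs from -4.00 for Knl1 at 37.7% GC to 0.74 for Ncapd2 at 54.0% GC, and in MT no such slope is seen (r = -0.07).

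Levels per exonic length put these changes on a common scale. The highest mean levels in MB were those of Cdc20 at 233 ± 21.1 RPKM (SD, n = 2), Ube2c at 187 ± 20.4 RPKM (SD, n = 2), Plk1 at 138 ± 33.7 RPKM (SD, n = 2) and Aurka at 126 ± 14.7 RPKM (SD, n = 2). Plk1 and Aurka do not differ beyond their spread. The lowest were Cenpf at 2.99 ± 3.26 RPKM (SD, n = 2) and Knl1 at 3.66 ± 4.57 RPKM (SD, n = 2), again within each other's spread. The median of the 45 genes was 33.7 RPKM in MB and 7.61 in MT. Within the chromosomal passenger complex the highest and the lowest subunit differed 2.34-fold and 2.53-fold in the MB libraries, with Birc5 on top and Cdca8 at the bottom of both. Condensin I subunits ranged over 2.68-fold in MB replicate 2, from Ncapg at 20.3 to Smc4 at 54.2 RPKM, but over 17.3-fold in MB replicate 1, where Smc2 was at 2.98 and Ncapd2 at 51.5 RPKM. In the MT libraries their range was 3.66-fold and 3.96-fold, with the order Ncapg lowest and Smc4 highest as in MB replicate 2. The Ndc80 complex ranged over 9.59-fold and 3.63-fold in MB, where Spc24 was highest, and over 8.86-fold and 6.82-fold in MT, where Spc25 was highest.

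Other genes of cell division, listed by function, were called lower in MT in part. Of 32 other kinetochore genes 16 were called lower, of 29 other spindle and mitotic entry genes 16, of 20 genes of mitotic transcription 6, of 19 genes of the anaphase-promoting complex and its substrates 2, and of 12 genes of condensin II and cohesin 1. Of 24 DNA replication genes 20 were called lower. Over all genes tested 6.86% were called lower, and the counts for the anaphase-promoting complex and for condensin II and cohesin were near that share. In none of these lists was a gene called higher in MT by edgeR's quasi-likelihood test, the likelihood ratio test or DESeq2, and 1 gene, among those of mitotic gene transcription, was higher at an unadjusted p under 0.05. The medians of log2FC were -1.70, -1.86, -1.01, -0.35, -0.59 and -2.31, in the order of the lists. Without MB replicate 1 the counts were 24, 22, 7, 2, 3 and 22, beside 5.93% of all genes.

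Among regulators of mitotic transcription, Foxm1, the forkhead factor that induces G2 genes, was at 8.41 and 8.39 CPM in MT and 71.9 and 44.95 in MB (log2FC -2.81, SE 0.52, adjusted p = 0.0053). Mybl2, the B-Myb that joins the core of DREAM to activate mitotic genes, was at 12.1 and 4.58 CPM in MT and 68.3 and 28.2 in MB (log2FC -2.52, SE 0.68, adjusted p = 0.0273), and the repressor E2f7 at 9.16 and 14.0 CPM in MT and 47.7 and 55.7 in MB (log2FC -2.17, SE 0.49, adjusted p = 0.0123). For each of these genes, which were named for the size of their change, both MT libraries were below both MB libraries, as in 29.2% of all genes tested. In these lists the largest change was that of Espl1, the separase that cuts cohesin, at 4.39 and 5.72 CPM in MT and 102 and 66.9 in MB (log2FC -4.09, SE 0.53, adjusted p = 7.7e-04). Fbxo5, an inhibitor of the anaphase-promoting complex, was at 13.0 and 12.7 CPM in MT and 40.6 and 93.8 in MB (log2FC -2.35, SE 0.52, adjusted p = 0.012). Cdca5, which encodes sororin and stabilises cohesin, was the only called gene of condensin II and cohesin, at 11.5 and 7.76 CPM in MT and 60.05 and 53.0 in MB (log2FC -2.54, SE 0.51, adjusted p = 0.00767).

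At the outer kinetochore Ska1, of the complex that tracks microtubule ends, was at 5.06 and 4.20 CPM in MT and 41.3 and 55.4 in MB (log2FC -3.36, SE 0.53, adjusted p = 0.00224). Haspin, the kinase that recruits the passenger complex to centromeres, had 5.88 and 4.07 CPM in MT and 36.4 and 36.8 in MB (log2FC -2.85, SE 0.55, adjusted p = 0.00605), and Cenpn, a reader of Cenpa nucleosomes, 4.39 and 5.34 CPM in MT and 29.9 and 34.2 in MB (log2FC -2.72, SE 0.53, adjusted p = 0.0067). Among spindle and entry genes the largest changes were those of the kinesins Kif18b (log2FC -3.23, SE 0.50, adjusted p = 0.00221) and Kifc1 (log2FC -2.77, SE 0.60, adjusted p = 0.0102) and of Cdc25c, the phosphatase that activates Cdk1 (log2FC -3.20, SE 0.59, adjusted p = 0.0053). The replication genes changed most were Orc1, of the origin recognition complex (log2FC -3.41, SE 0.76, adjusted p = 0.0119), the licensing factor Cdt1 (log2FC -3.38, SE 0.59, adjusted p = 0.0038) and the helicase subunit Mcm5 (log2FC -3.33, SE 0.57, adjusted p = 0.00339). The difference between these lists and the 45 genes was not tested.

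In MB treated with lactate none of the 45 genes reached the threshold used for this comparison, an unadjusted p under 0.01 and a log2FC beyond 0.5 in size, in edgeR's quasi-likelihood test. Over all 11804 genes tested, 0 passed it (0%), and 5 had an unadjusted p under 0.05. None of the 45 was among these, the smallest unadjusted p of the 45 being 0.359, and every adjusted p rounded to 1.0. DESeq2 and the likelihood ratio test also called none of the 45. The median log2FC of the 45 genes was 0.04 and that of all genes -0.0034, with 31 values above 0 and 14 below. These tests held no replicate term, although same-numbered lactate-treated and control libraries deviated together (r = 0.70 across genes). The difference between replicates thus counted as spread, and a count of 0 says little about the 45 genes. With a replicate term and GC and length trends removed, Cenpe, Smc4 and Bub1 passed, beside 1.45% of all genes. Their adjusted p was at least 0.228 from edgeR.

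Cdk1 was at 441 and 375 CPM with lactate and 404 and 437 without, a log2FC of -0.08 (SE 0.38). Ccnb1 was at 293 and 259 against 233 and 289 CPM, and Cdc20 at 510.3 and 388 against 463 and 407 CPM. In these genes the groups overlapped, and the difference was smaller than the spread between libraries. The largest positive log2FC, 0.52 (SE 1.00), was that of Cenpe, which had 41.6 and 123 CPM with lactate and 11.8 and 101 without. Bub1 followed with 0.40 (SE 0.78), at 96.8 and 149 CPM against 27.9 and 154 CPM. For both genes MB replicate 1 was the lowest of the 4 libraries. The largest negative value, -0.40 (SE 0.40), was that of Hjurp, at 148 and 214 CPM with lactate and 237 and 229.7 without. Hjurp and Kif2c (144 and 135 against 156 and 145 CPM) were the only genes of the 45 in which both lactate libraries were below both controls, as in 6.84% of all genes tested. No gene of the 45 had both above, against 4.28% of all genes.

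The standard errors of the lactate comparison ran from 0.36 to 1.15, with a median of 0.78 in the 15 genes lowest in GC and 0.37 in the 15 highest, so that small changes were not detectable at this spread. In all 15 low-GC genes MB replicate 1 was the lowest of the 4 libraries and lactate-treated replicate 1 the second lowest. Without MB replicate 1 the median log2FC was -0.24 and 0 genes passed. Without MB replicate 2, 7 passed the unadjusted threshold, beside 1.47% of all genes, all with higher values in lactate. These were Cenpe, Cenpf, Knl1, Kif11, Smc2, Smc4 and Bub1, with log2FC between 2.09 and 3.32 and adjusted p of at least 0.348 from edgeR. All 7 are among the 15 genes lowest in GC, and their values then rest on MB replicate 1 alone. The sign of the median and the count thus depended on which MB library was left in.

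**Figure D4:**
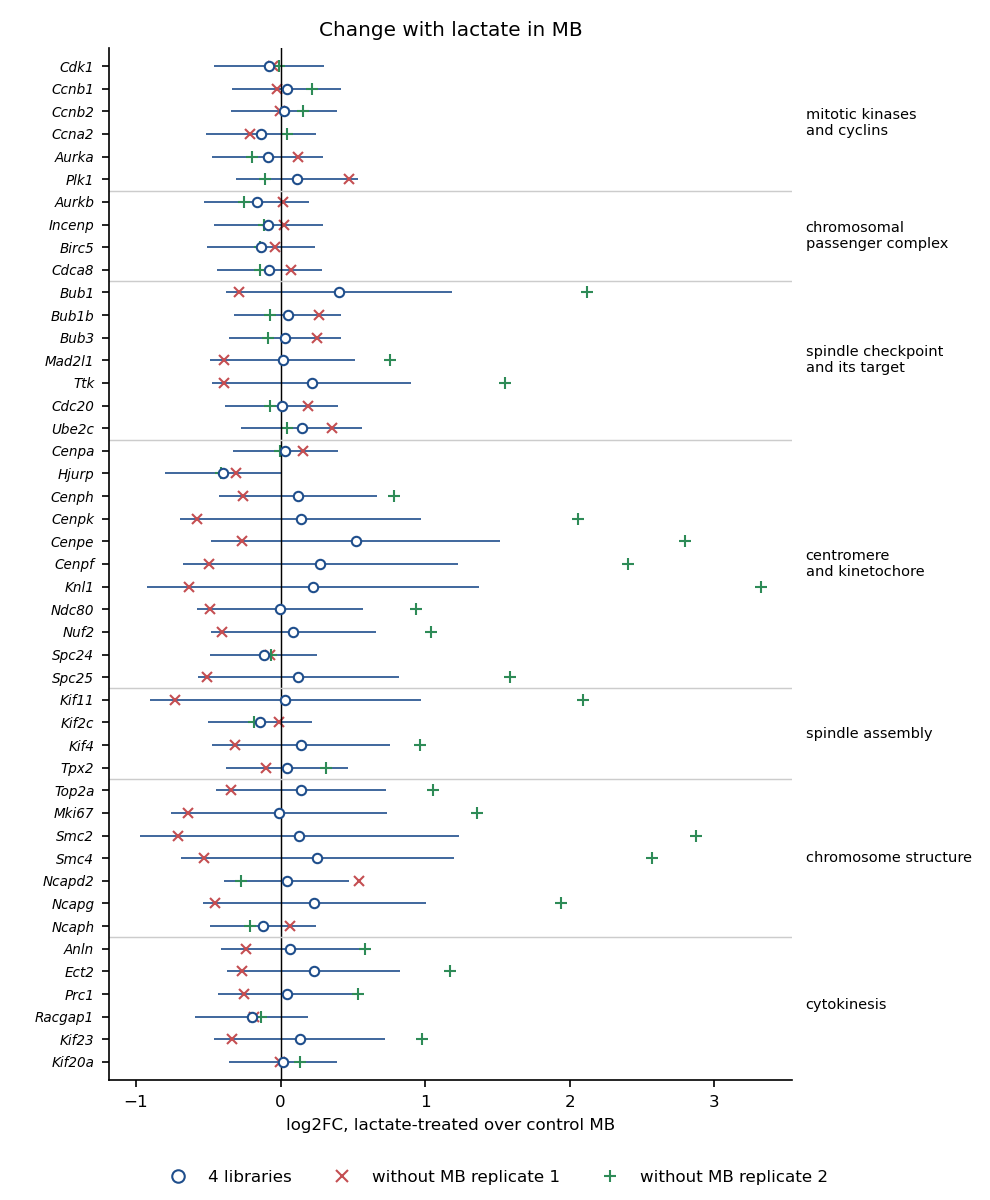
Log2FC of lactate-treated over control MB for the 45 genes by role, with the standard error (bars) over 4 libraries (circles) and the values without MB replicate 1 (crosses) and without MB replicate 2 (plus signs). Circles lie between -0.40 and 0.52 with bars that all reach 0, and the plus signs of the 7 genes past the unadjusted threshold lie between 2.09 and 3.32.

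In GAS, a tissue of mature fibers and other cells, most of the 45 genes were barely detected. The median level was 0.0909 RPKM, and 24 genes had a mean below 0.1 RPKM. Ccnb1, Aurkb, Bub1, Ttk and Cenph had at most 3 counts in each of the 3 libraries, and 20 genes had at least 10 counts in all. Cdk1 had 4, 2 and 2 counts and Top2a 0.558, 1.01 and 0.415 CPM. A mean over 1 RPKM was found for 7 genes, compared with 27.1% of the 36429 genes of the GAS files that have an annotated length. Summed levels in GAS were 109.6 to 129 CPM for the endothelial, 16.2 to 17.5 for the leukocyte, 485 to 572 for the fibroblast and 819 to 4209 for the erythroid markers, and the share of these cells in the levels of mitotic genes was not tested.

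Ube2c stood far above the others in GAS, at 425, 401 and 289 CPM or 143 ± 28.0 RPKM (SD, n = 3). In each library it made up most of the level of the 45 genes, whose sum was 387 to 520.3 CPM with Ube2c and 94.9 to 98.0 CPM without. The gene Tnnc2, which encodes the troponin C of fast fibers and was looked up after the level of Ube2c was seen, lies on the opposite strand and shares 592 of the 2600 exonic bases of Ube2c. Tnnc2 was at 9975 ± 661 CPM (SD, n = 3) in GAS, at a mean of 49.1 CPM in MT, and MB had no count of it. Reads of Ube2c and of Tnnc2 cannot be told apart where the counting did not use strand, which the sources used here do not state, and the part of Tnnc2 in this value was not tested.

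The next genes in GAS were Bub3 at 3.90 ± 0.182 RPKM (SD, n = 3), Aurka at 2.67 ± 0.299 RPKM (SD, n = 3) and Hjurp at 2.21 ± 0.294 RPKM (SD, n = 3). The libraries of Aurka and Hjurp overlapped. The others over 1 RPKM were Ncapd2 at 1.43 ± 0.0951 RPKM (SD, n = 3) and Smc4 at 1.26 ± 0.0522 RPKM (SD, n = 3), both of condensin, and Tpx2 at 1.04 ± 0.325 RPKM (SD, n = 3). Bub3 and Hjurp were also the 2 genes that had alike replicates in MB and MT and were not called between them. Their libraries in GAS were close to each other, with 26.9, 28.8 and 26.3 CPM for Bub3 and 17.4, 16.7 and 21.2 CPM for Hjurp. Spc24, at 0.893 ± 0.0504 RPKM (SD, n = 3), was below 1 RPKM and was higher than its partners Ndc80 (0.0211 RPKM) and Nuf2 (0.0269 RPKM).

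**Figure D5:**
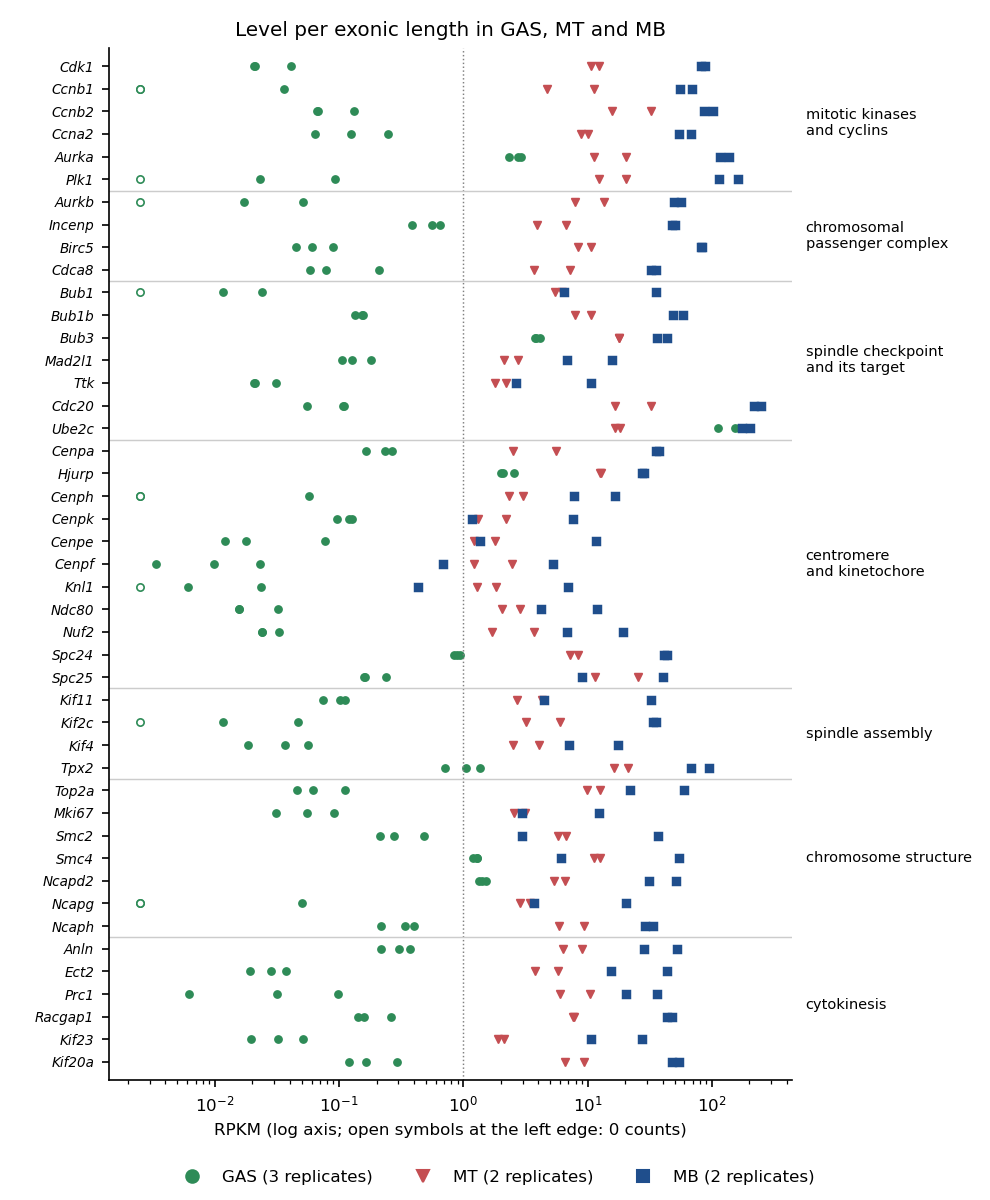
Level per exonic length (RPKM, log axis) of the 45 genes in the libraries of GAS, MT and MB, grouped by role, with open symbols at the left edge for libraries with 0 counts and a dotted line at 1 RPKM. GAS means lie at or below 3.90 RPKM, except for Ube2c at 143 ± 28.0 RPKM (SD, n = 3), and GAS values were normalized separately from the cultured cells.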

How the data were processed

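RNA of GAS, MB, MT and lactate-treated MB was sequenced, and the authors deposited raw counts per gene for each library. Per the labels, reads were trimmed with Trim Galore 0.6.6, aligned to mm10 with HISAT2 2.2.1 and counted with featureCounts of Subread 2.0.1. The annotation release, strand and treatment of multimapping reads are not given in the sources used here. GENCODE M21, on the same assembly, gave names, exonic lengths and GC content. GAS libraries were made by poly(A) selection and those of cultured cells with Smart-seq2, in which cDNA is amplified by PCR, so they were normalized separately (TMM) and not tested against each other.

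The 2 MT with the 2 MB libraries, and the 2 lactate-treated with the 2 control MB libraries, were compared in separate fits of edgeR 4.0.16 (R 4.3.3) over the genes kept by its filter for low counts, by the quasi-likelihood test and Benjamini-Hochberg adjustment, without a replicate term. SE is the absolute log2FC divided by the square root of the F statistic. Calls used an adjusted p under 0.05, or for lactate an unadjusted p under 0.01, with an absolute log2FC over 0.5. CPM are counts scaled by TMM-normalized library size, and RPKM divides them by the kilobases of merged exons. Fits were tested on simulated data with a smaller spread than these libraries and no replicate or GC effect. That test does not show how the fits perform at the spread seen here. Alternatives were RLE size factors, DESeq2 1.42.0, the likelihood ratio test, other filters and thresholds, all 6 cultured libraries in one fit, the replicate block, alone or with GC and length trends removed, and leaving out each replicate. Overlapping genes and copies (at least 90% identity over 300 bases) were found in the annotation. Python 3.11.15 was used for the rest.

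The genes and lists were chosen with earlier results of these data known. Every gene is described by role, and of each pathway list the counts and the called genes with the 3 largest changes are given.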

Additional observations from a re-analysis of the deposited data

How the results depend on the processing

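Every alternative left the number of genes called lower in MT within 1.5 times of 30 and the number called higher at 0. Leaving out single replicates, between 24 and 42 genes were called lower, with a median log2FC between -2.63 and -1.99. Over the 15 genes not called, the median log2FC was -2.22 without MB replicate 1 and -0.22 without MB replicate 2. Of these genes, 6 changed sign without MB replicate 2. Their log2FC ran, from the fit without MB replicate 1 to that without MB replicate 2, from -2.14 to 0.44 for Cenpk, from -1.56 to 1.26 for Cenpf, from -2.19 to 1.70 for Knl1, from -1.17 to 0.87 for Spc25, from -2.60 to 0.90 for Smc2 and from -2.22 to 0.80 for Smc4. Calls lost without MB replicate 2 were those of Cenph, Kif4 and Top2a. Those lost without MT replicate 1 were Cenph, Kif4, Tpx2, Top2a and Prc1, and without MT replicate 2 Ccnb2, Nuf2, Kif4, Tpx2, Top2a, Ncaph and Prc1. Kif4 and Top2a were also lost at a minimum of 10 counts in every library and with all 6 cultured libraries in one fit. With the replicate block 30 genes were called lower, Kif11 gained and Top2a lost. With GC and length trends removed as well 41 were called, beside 14.9% of all genes. With crossed replicate numbers 29 were called. The crossing was chosen after the data were seen, because deviations of libraries with the same number had a weak negative correlation (r = -0.13 across genes). For lactate, where same-numbered libraries deviated together (r = 0.70), the replicate block called 0 genes past the unadjusted threshold and, with GC and length trends removed, 3, beside 1.45% of all genes. These were Cenpe, Smc4 and Bub1, higher with lactate, with adjusted p between 0.228 and 0.585. The numbers are shared by 2 libraries a group, and nothing states that they mark the same animals. Leaving out each replicate gave between 0 and 7 genes past the lactate threshold and median log2FC between -0.24 and 0.31. Leaving out ribosomal RNA genes, also chosen after the data were seen, moved no count. In GAS, between 6 and 7 genes were over 1 RPKM when each replicate was left out, and 9 were over 0.5 RPKM. With 2 libraries a group, differences within the spread of MB were not detectable.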
